A study of Mus musculus with 6 samples.

Results

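A group of 10 transcription factors of mesenchymal identity was followed by RNA-seq in MC3T3-E1, a pre-osteoblast line from mouse calvaria, with and without knockdown of the histone deacetylase gene Hdac4. They form the paralog pairs Prrx1 and Prrx2, Twist1 and Twist2, Snai1 and Snai2, Zeb1 and Zeb2, and Foxc1 and Foxc2. The 10 genes were chosen by symbol among the 53801 Ensembl identifiers in the count tables, each symbol matched 1 identifier, and all 10 were among the 14531 genes with enough counts to be tested. The comparison addresses how the expression profile of these cells changed when Hdac4 was lowered.

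The Control group held 3 libraries of MC3T3-E1 cells infected with a lentivirus carrying scrambled non-silencing RNA, and the Hdac4-knockdown group held 3 libraries of cells infected with the same lentivirus carrying an Hdac4-shRNA. Cells of both groups carried the vector, with its ZsGreen1 and puromycin resistance genes, and were selected in 5 μg/mL puromycin for 7 days. The sequenced knockdown rested on a single hairpin, named Hdac4-shRNA3 in the methods, in a pool of infected cells. The 3 RNA samples of each group were described as biological replicates but not as separate infections, so p-values measure only the spread between these samples.

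As background, these factors set up and maintain mesenchyme, the loose migratory tissue from which most of the skeleton forms. Prrx1 and Prrx2 are homeodomain proteins of limb and craniofacial mesenchyme, and Foxc1 and Foxc2 are forkhead proteins needed for the skull vault and the axial skeleton. Twist1 and Twist2 are basic helix-loop-helix (bHLH) proteins that hold osteoblast precursors back from differentiation. Snai1, Snai2, Zeb1 and Zeb2 are zinc finger repressors that bind E-boxes at epithelial genes such as Cdh1, the gene of E-cadherin, and with the Twist proteins they drive the transition from epithelium to mesenchyme.

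Promoter sequence from RefSeq (GRCm38.p6), the 250 bases before the annotated start, was on hand for 7 of the 10 genes. The windows of both Twist genes and of Snai1 are shown because Twist1 had the largest rise of the 10, its paralog Twist2 fell, and Snai1 alone held an E-box. Capitals mark a CANNTG (E-box) or a TATAAA on either strand. The windows are Twist1 at chr12:33957421-33957670, Twist2 at chr1:91801211-91801460 and Snai1 at chr2:167537945-167538194, all on the plus strand and written 5′ to 3′.
Twist1: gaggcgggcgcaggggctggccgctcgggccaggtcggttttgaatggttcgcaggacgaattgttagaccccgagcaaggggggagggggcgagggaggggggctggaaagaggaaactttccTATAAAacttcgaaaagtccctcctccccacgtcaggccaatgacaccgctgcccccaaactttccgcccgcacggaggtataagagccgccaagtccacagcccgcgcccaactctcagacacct
Twist2: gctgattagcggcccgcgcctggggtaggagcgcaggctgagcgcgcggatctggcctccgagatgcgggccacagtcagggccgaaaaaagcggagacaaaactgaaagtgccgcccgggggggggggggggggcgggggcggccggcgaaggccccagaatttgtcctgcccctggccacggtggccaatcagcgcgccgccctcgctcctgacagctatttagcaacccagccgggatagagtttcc
Snai1: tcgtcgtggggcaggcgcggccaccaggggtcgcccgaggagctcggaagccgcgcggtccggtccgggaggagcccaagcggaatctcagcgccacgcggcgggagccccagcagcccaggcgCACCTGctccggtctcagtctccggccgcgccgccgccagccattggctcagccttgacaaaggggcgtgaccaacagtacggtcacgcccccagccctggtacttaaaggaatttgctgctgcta

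The E-box of the Snai1 window, CACCTG, began 126 bases before the start and is of the form CAGGTG on the other strand, which Snail and Zeb factors bind. Of all 32817 windows of this length, 66.2% held a CANNTG and 17.2% held a CAGGTG on either strand, every CAGGTG being also a CANNTG. The Twist1 window held a TATAAA that began 126 bases before the start, and 12.4% of all windows held that motif. The windows of Prrx1, Prrx2, Twist2, Zeb2 and Foxc1 held none of the motifs searched, which also included the forkhead motif GTAAACA on either strand (3.16% of all windows). The G and C content was 62.4% for Twist1, 68.8% for Twist2, 70.8% for Foxc1 and 70.0% for both Prrx2 and Snai1, against a median of 52.4% over all windows, whereas Prrx1 was at 47.6% and the 4 windows of Zeb2 were at 49.6% to 57.6%. A motif match describes the letters of the window and not a bound site.

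Each library held between 29096544 and 31651826 counts on genes, and the first principal component, which separated the groups, held 94.98% of the variance. Hdac4 itself was at 40.7, 40.2 and 39.9 CPM (counts scaled to library size after TMM normalization) in Control libraries 1 to 3 and at 30.7, 28.8 and 29.5 CPM in Hdac4-knockdown libraries 1 to 3, so that 73.6% of the Control level was left (log2 fold change -0.44, SE 0.057, edgeR adjusted p = 8.98e-07). Of its merged exon bases, 22.4% overlap Gm26720, which had no counts in any library. Reads shared between genes were left out of the counts, so this does not show that the overlap left the Hdac4 level unaffected. The osteoblast markers Runx2, Spp1 and Col1a1 were detected in every library, but Alpl, which encodes the alkaline phosphatase of osteoblasts, had at most 3 counts in each library, and Bglap, the osteocalcin gene, had at most 12. Sp7, which encodes osterix, had 2 to 7 counts in Control libraries and 68 to 112 in Hdac4-knockdown libraries.

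All 10 mesenchymal factors differed between the groups, with 6 upregulated and 4 downregulated in Hdac4-knockdown cells. Twist1, Prrx2, Snai1, Prrx1, Zeb1 and Foxc1 rose, in that order of log2 fold change, and Snai2, Twist2, Foxc2 and Zeb2 fell. A gene was called where its adjusted p (quasi-likelihood F test of edgeR, Benjamini-Hochberg over all genes tested) was below 0.05 and its log2 fold change beyond 0.05 in size. By that rule 75.1% of all genes tested were called, 38.0% up and 37.1% down, so that such calls were common in the table. The libraries of the groups did not overlap for any of the 10, and this held for 76.8% of all genes.

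The sizes of the changes spread widely. With a log2 fold change beyond 1, 4 of the 10 were called, against 27.1% of all genes. Of these 4, Twist1, Prrx2 and Snai1 were up, against 16.5% of all genes, and Snai2 was down, against 10.6%. The median log2 fold change of the 10 was 0.68 and its median size 0.89, whereas over all genes tested these were 0.01 and 0.46. A larger change than that of Twist1 was found in 3.23% of all genes tested, while 55.7% of them changed more than Zeb2 and 49.5% more than Foxc2. Summed over the 10 genes, the mean level was 525.1 CPM in Control libraries and 875 CPM in Hdac4-knockdown libraries. In bulk RNA, fewer cells of a type and less RNA per cell cannot be told apart.

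**Figure D1:**
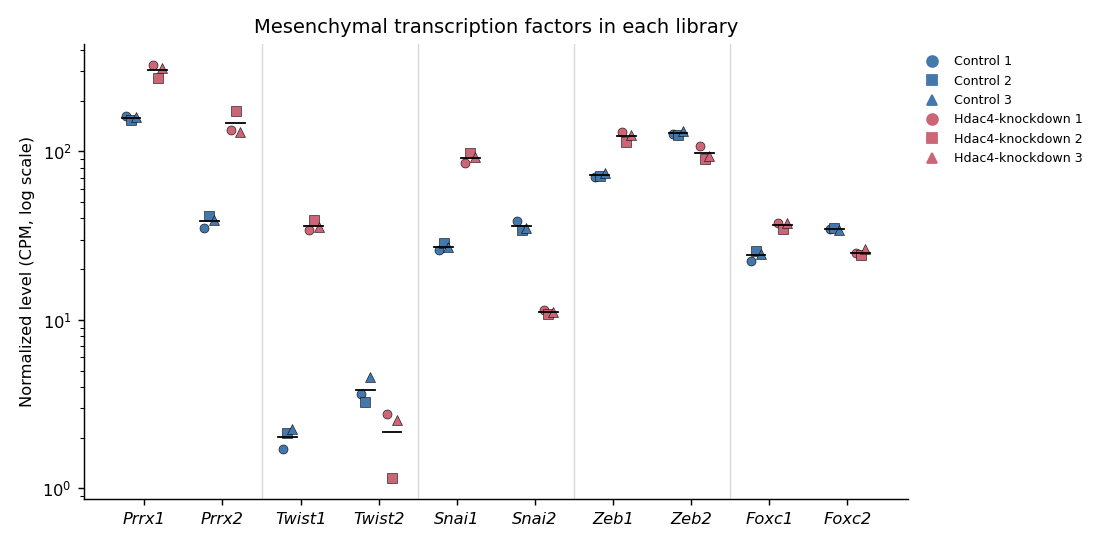
Normalized level in CPM, on a log axis, of each of the 10 factors in each library, with paralogs side by side. Points are libraries (blue Control, red Hdac4-knockdown, the shape giving the replicate) and bars are means of 3. Twist1 goes from about 2.03 to 36.3 CPM and Snai2 from 36.1 to 11.1 CPM, and no gene has overlapping groups.

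Prrx1 and Prrx2 were both upregulated. Prrx1 (ENSMUSG00000026586; GRCm38 chromosome 1, 163245119 to 163313710, minus strand), a marker of limb bud and calvarial progenitors, was at 161, 154 and 159 CPM in Control libraries and at 327, 273 and 312 CPM in Hdac4-knockdown libraries. Its mean went from 158 ± 3.75 to 304 ± 28.3 CPM (SD, n = 3), a fold change of 1.92 (log2 fold change 0.94, SE 0.054, edgeR adjusted p = 4.39e-12). The 3 knockdown libraries all lay above the Control libraries, with replicate 2 the lowest of them.

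Prrx2 (ENSMUSG00000039476; chromosome 2, 30834972 to 30881251, plus strand) acts together with Prrx1 in the jaw and limb skeleton. It was at 35.1, 41.1 and 39.4 CPM in Control libraries and at 135, 175 and 130 CPM in Hdac4-knockdown libraries. From 38.5 ± 3.06 to 147 ± 24.6 CPM (SD, n = 3), it rose 3.80-fold (log2 fold change 1.93, SE 0.087, edgeR adjusted p = 9.58e-14). The knockdown libraries varied more among themselves than the Control libraries, with a coefficient of variation of 16.8%, and here replicate 2 was the highest.

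Twist1 and Twist2 went in opposite directions. Twist1 (ENSMUSG00000035799; chromosome 12, 33957671 to 33959829, plus strand), whose loss of a single copy closes skull sutures early, had 52, 64 and 64 counts in Control libraries and 1052, 1269 and 1072 counts in Hdac4-knockdown libraries. In normalized terms it was at 1.70, 2.14 and 2.24 CPM in Control libraries and at 34.0, 39.4 and 35.6 CPM in knockdown libraries. The mean rose 17.9-fold, from 2.03 ± 0.288 to 36.3 ± 2.76 CPM (SD, n = 3), with a log2 fold change of 4.16 (SE 0.11, 95% interval 3.94 to 4.39, edgeR adjusted p = 1.16e-17). By p-value Twist1 ranked 238 of the 14531 genes tested, the first of the 10 factors.

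Twist2 (ENSMUSG00000007805; chromosome 1, 91801461 to 91848028, plus strand), the paralog also known as Dermo1 for its place in the dermis, was thinly counted. It had 111, 98 and 131 counts in Control libraries and 86, 37 and 77 counts in Hdac4-knockdown libraries. The corresponding levels were 3.63, 3.27 and 4.60 CPM in Control libraries and 2.78, 1.15 and 2.56 CPM in knockdown libraries. The mean fell from 3.83 ± 0.684 to 2.16 ± 0.885 CPM (SD, n = 3), to 56.4% of Control (log2 fold change -0.83, SE 0.24, edgeR adjusted p = 0.00415). Much of that size came from Hdac4-knockdown replicate 2, and without it the log2 fold change was -0.52 (edgeR adjusted p = 0.0204). Of the merged exon bases of Twist2, 46.5% are shared with the antisense gene Gm29100. That gene had 36 to 42 counts in Control libraries and 40 to 44 in knockdown libraries. Reads without strand cannot be divided between the 2 genes. Reads shared between genes were left out of the counts, so the level of Twist2 may be too low, also per kb.

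The Snail genes also parted. Snai1 (ENSMUSG00000042821; chromosome 2, 167538195 to 167542814, plus strand), a repressor of the E-cadherin gene, was at 26.0, 28.6 and 27.0 CPM in Control libraries and at 85.4, 97.3 and 92.8 CPM in Hdac4-knockdown libraries. It rose 3.37-fold, from 27.2 ± 1.33 to 91.8 ± 5.99 CPM (SD, n = 3; log2 fold change 1.75, SE 0.059, edgeR adjusted p = 9.16e-16). The lowest knockdown library was well above the highest Control library.

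Snai2 (ENSMUSG00000022676; chromosome 16, 14705852 to 14709385, plus strand), also called Slug, was first known from the neural crest of the chick. It was at 38.8, 34.3 and 35.3 CPM in Control libraries and at 11.4, 10.8 and 11.2 CPM in Hdac4-knockdown libraries, so the knockdown libraries lay within 1 CPM of each other. The mean fell from 36.1 ± 2.35 to 11.1 ± 0.291 CPM (SD, n = 3), to 30.8% of Control (log2 fold change -1.70, SE 0.073, edgeR adjusted p = 4.27e-14). This was the largest fall among the 10 factors.

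Zeb1 rose and Zeb2 fell, both by less than 2-fold. Zeb1 (ENSMUSG00000024238; chromosome 18, plus strand), a repressor that binds pairs of E-boxes, was at 70.9, 71.3 and 74.8 CPM in Control libraries and at 131, 113 and 125 CPM in Hdac4-knockdown libraries. Its mean went from 72.3 ± 2.12 to 123 ± 8.97 CPM (SD, n = 3), a fold change of 1.70 (log2 fold change 0.77, SE 0.053, edgeR adjusted p = 7.45e-11).

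Zeb2 (ENSMUSG00000026872; chromosome 2, 44983632 to 45117395, minus strand), a Smad-binding paralog needed in neural crest, was at 127, 125 and 132 CPM in Control libraries and at 108, 90.7 and 94.6 CPM in Hdac4-knockdown libraries. At 97.7 ± 8.96 against 128 ± 3.82 CPM (SD, n = 3), 76.3% of the Control level was left (log2 fold change -0.39, SE 0.055, edgeR adjusted p = 2.92e-06). This was the smallest change of the 10, and the gap between the groups was still wider than either group's spread. Exon overlaps were small, 1.93% of the merged exon bases for Zeb1 (with Gm10125) and 3.30% for Zeb2 (mostly with the antisense gene Zeb2os, which had 0 to 6 counts per library).

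Foxc1 rose and Foxc2 fell. Foxc1 (ENSMUSG00000050295; chromosome 13, 31806633 to 31812476, plus strand), a single-exon gene required for the calvarial bones, was at 22.2, 25.8 and 24.7 CPM in Control libraries and at 37.5, 34.5 and 37.6 CPM in Hdac4-knockdown libraries. The rise was 1.51-fold, from 24.2 ± 1.82 to 36.5 ± 1.76 CPM (SD, n = 3; log2 fold change 0.59, SE 0.068, edgeR adjusted p = 1.71e-07).

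Foxc2 (ENSMUSG00000046714; chromosome 8, 121116171 to 121118895, plus strand), its paralog in the same embryonic mesenchyme and in lymphatic vessels, was at 34.6, 35.1 and 34.3 CPM in Control libraries and at 24.9, 24.2 and 26.2 CPM in Hdac4-knockdown libraries. From 34.7 ± 0.389 to 25.1 ± 1.05 CPM (SD, n = 3), the level fell to 72.5% of Control (log2 fold change -0.47, SE 0.061, edgeR adjusted p = 1.06e-06). Replicates of each group were close together, and the Control libraries spanned less than 1 CPM.

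Taken gene by gene over libraries, each of the 10 differences had p = 0.1 in a two-sided exact permutation test, the smallest value that 3 libraries against 3 allow, so the calls rest on the model across genes. Among the knockdown libraries, replicate 2 was the lowest for 7 of the 10 genes and the highest for the other 3, Prrx2, Twist1 and Snai1. The genes for which it was the highest were the 3 with the largest rises. Replicate 2 also stood apart beyond the 10 factors. Across counted genes, the chi-square per degree of freedom between knockdown replicates was 9.15 for 1 and 2, 6.455 for 2 and 3, and 3.88 for 1 and 3.

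**Figure D2:**
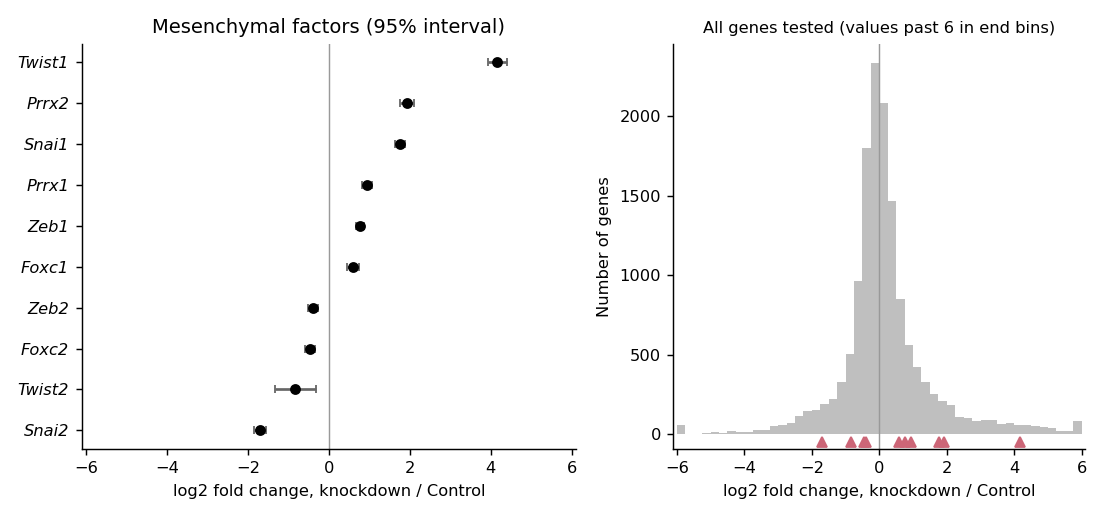
Left, log2 fold change (Hdac4-knockdown over Control) of each factor with its 95% interval from edgeR. Right, histogram of the log2 fold changes of all 14531 genes tested, with triangles at the 10 factors; Twist1 at 4.16 lies in the right tail, and Zeb2 at -0.39 lies near the centre.

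Levels of different genes were compared per kilobase of merged exons (CPM per kb). In Control libraries, Prrx2 (19.7 ± 1.56, SD), Snai2 (17.9 ± 1.16) and Snai1 (16.8 ± 0.822) were the most abundant, and each overlapped its neighbour in this order. Prrx1 (14.3 ± 0.339), Foxc2 (12.7 ± 0.143), Zeb1 (7.05 ± 0.207), Zeb2 (6.42 ± 0.192) and Foxc1 (4.15 ± 0.312) followed without overlap. Twist1 (1.25 ± 0.177) and Twist2 (1.21 ± 0.215) were the lowest and overlapped each other on this scale.

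In Hdac4-knockdown libraries the order per kb was Prrx2 (74.8 ± 12.6 CPM per kb, SD), Snai1 (56.6 ± 3.69), Prrx1 (27.5 ± 2.56), Twist1 (22.3 ± 1.70), Zeb1 (12.0 ± 0.874), Foxc2 (9.22 ± 0.385), Foxc1 (6.25 ± 0.301), Snai2 (5.51 ± 0.144), Zeb2 (4.90 ± 0.449) and Twist2 (0.681 ± 0.279). Snai2 and Zeb2 were the only neighbours whose libraries overlapped. Twist1 moved from rank 9 to rank 4 and Snai2 from rank 2 to rank 8, while Prrx2 was first in both groups. Length matters here: with the longest transcript in place of merged exons, 12 of the 20 ranks moved, Prrx1 to rank 2 in Control and Zeb2 from rank 9 to rank 6 in the knockdown.

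Within each pair, the balance between paralogs shifted. Per length, Twist1 made up 47.7%, 56.0% and 48.8% of the Twist total in Control libraries and 96.0%, 98.5% and 96.5% in Hdac4-knockdown libraries. The Twist total went from 2.45 to 23.0 CPM per kb, 9.37 times its Control level. Snai1 made up 45.5%, 51.0% and 48.9% of the Snail total in Control libraries and 90.3%, 91.8% and 91.2% in knockdown libraries, with a total of 1.79 times its Control level. In both pairs, paralogs of near equal level per kb of merged exons in Control libraries were unequal in knockdown libraries. For the Twist pair the near equality depends on the length used. It also rests on a Twist2 level that leaves out reads shared with Gm29100. With the longest transcript, the Control means were 1.52 CPM per kb for Twist2 and 1.25 for Twist1. The Snail lengths were the same by either measure.

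The shifts of the other pairs were smaller. Zeb1 went from 52.3 ± 0.199% to 71.0 ± 0.895% of the Zeb total (SD, n = 3), and the total went from 13.5 to 16.9 CPM per kb. Foxc1 went from 24.6 ± 1.33% to 40.4 ± 0.725% of the Foxc total, which was at 16.9 CPM per kb in Control libraries and 15.5 in knockdown libraries. Prrx1 went the other way, from 42.2 ± 2.50% to 27.2 ± 4.80% of the Prrx total, and the Prrx total went from 33.9 to 102 CPM per kb, 3.01 times its Control level.

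The log2 ratio of the first to the second paralog, computed with a pseudocount of 0.5 CPM, was higher in Hdac4-knockdown libraries by 4.62 for Twist1 over Twist2, 3.39 for Snai1 over Snai2, 1.15 for Zeb1 over Zeb2 and 1.04 for Foxc1 over Foxc2. For Prrx1 over Prrx2 the difference was -0.97. In none of the 5 pairs did the ratios of the groups overlap, and the two-sided exact permutation test gave p = 0.1 for each, also 0.1 after adjustment over the 5 pairs, which is the smallest value possible.

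**Figure D3:**
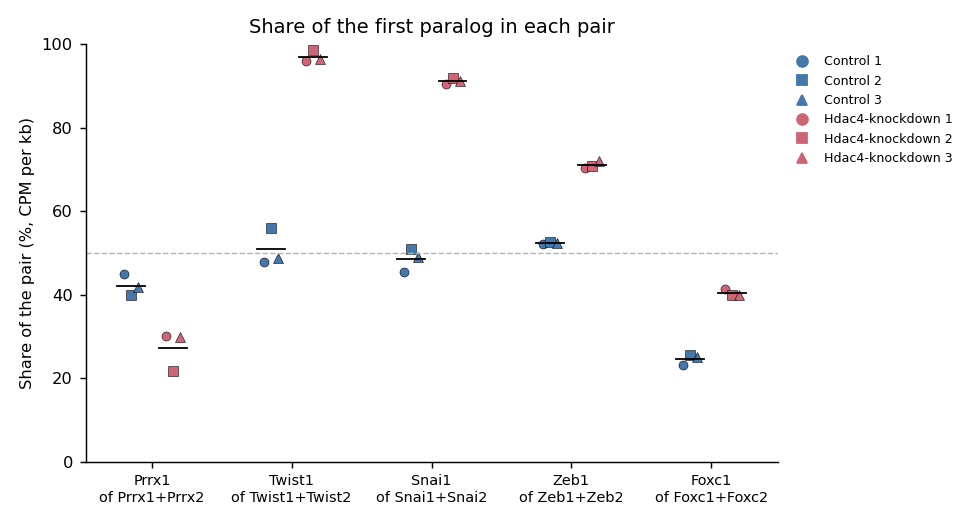
Share of the first paralog in the pair's total, in percent of CPM per kb of merged exons, for each library (blue Control, red Hdac4-knockdown, bars are means of 3). The dashed line marks 50%. Twist1 and Snai1 go from close to that line to 97.0% and 91.1%, and Prrx1 is the only first paralog whose share falls.

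The partners of the Twist proteins changed unevenly. The background for this list and those below is all genes tested, of which 38.0% were called up and 37.1% down. Their median log2 fold change was 0.01. In each list, a gene too low in either group passed the filter only through the other group. For such genes the direction of a call was fixed in advance. Twist factors bind DNA with E proteins (Tcf3, Tcf4, Tcf12), and Id proteins sequester those E proteins. Of 10 such genes listed with other mesenchymal bHLH genes, 7 were tested, 2 rose, 4 fell and Id3 was not called (log2 fold change 0.04), and Hand1, Hand2 and Tcf21 had at most 3 counts in any library. Id4 had 61, 64 and 46 counts in Control libraries and 1645, 1577 and 1483 in Hdac4-knockdown libraries, a log2 fold change of 4.71 (SE 0.096, edgeR adjusted p = 2.68e-19), and its groups lay far apart. Tcf4 also rose (0.65), whereas Id2 (-1.02), Id1 (-0.75), Tcf3 (-0.25) and Tcf12 (-0.11) fell, and the median log2 fold change of the list was -0.11.

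Corepressors recruited by Snail and Zeb proteins fell more often than they rose. All 14 listed genes were tested, of which 8 fell, 3 rose and 3 were not called, with a median log2 fold change of -0.13. Over all genes tested, 37.1% were called down. With library size alone or upper quartile scaling, 6 of the 14 fell and 3 rose, so the number that fell depends on the scaling. Suv39h1, a histone methyltransferase, fell most (log2 fold change -1.49, SE 0.060, edgeR adjusted p = 1.37e-14), followed by the scaffold gene Sin3a (-0.55). The Zeb partners Ctbp1 (-0.14) and Ctbp2 (-0.44) and the demethylase gene Kdm1a (-0.25) also fell. The 3 that rose were Wtip (0.32), Ajuba (0.29) and Rcor3 (0.25).

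Genes that control the turnover of Snail and Twist proteins were mixed. Of 7 tested, Btrc (0.91), Fbxw7 (0.54) and Fbxo11 (0.21), which encode substrate receptors of ubiquitin ligases, rose on the log2 scale. Fbxl14 (-0.50) and Fbxo45 (-0.31), also of that class, fell. Neither Fbxl5 (0.05) nor the kinase gene Gsk3b (-0.02) was called. RNA counts do not measure the protein levels that these enzymes set.

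Upstream, TGF-beta signalling induces several of the 10 factors. Of 10 listed genes, all tested, 7 rose, 1 fell and 2 were not called, with a median log2 fold change of 0.20. Smad7, an inhibitor that the pathway itself induces, rose from 36.9 ± 2.77 to 82.8 ± 1.57 CPM (SD, n = 3; log2 fold change 1.16, SE 0.056, edgeR adjusted p = 2.54e-13). The ligand gene Tgfb2 rose (0.88) and the receptor gene Tgfbr1 fell (-0.52), while Smad4, the shared mediator, had the smallest rise (0.16). The receptor gene Tgfbr2 (0.02) and Hmga2 (0.02), a chromatin factor that induces Snai1 and Twist1, were not called.

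Of 24 epithelial genes listed as targets of repression or epithelial markers, 6 had enough counts to be tested, and the list summed to between 44.1 and 49.3 CPM in Control libraries and to between 5.68 and 6.89 CPM in Hdac4-knockdown libraries. Most of the Control sum was Krt19, a simple-epithelium keratin, which had 1116, 1185 and 1230 counts in Control libraries and 1, 6 and 5 in knockdown libraries (log2 fold change -8.23, SE 0.18, edgeR adjusted p = 7.72e-19). Ocln, the tight junction gene of occludin, fell from 69 to 89 counts to 1 to 4, and the desmosome gene Pkp3 (log2 fold change -1.06), with 70 to 109 counts in Control libraries and 30 to 75 in knockdown libraries, fell as well. The tight junction gene Cldn1 and the epithelial regulator Grhl2 rose from low counts, from 0 to 6 up to 30 to 50 for Cldn1 and from 2 to 9 up to 42 to 65 for Grhl2. Krt8 (log2 fold change 0.19) was not called. Cdh1 had 5 to 13 counts in Control libraries and 6 to 10 in knockdown libraries and was too low to test, and Cldn3, Epcam, Crb3, Tjp3, Esrp1, Esrp2 and Ovol2 had at most 3 counts in any library.

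Of 20 mesenchymal effector genes, 16 were tested, 11 rose, 4 fell and Itga5 was not called (0.03), with a median log2 fold change of 1.00. Cdh11, the cadherin of osteoblasts, rose from 11.1 ± 1.18 to 411 ± 11.1 CPM (SD, n = 3; log2 fold change 5.21, SE 0.062, edgeR adjusted p = 1.11e-22), and Postn, which encodes periostin, rose as well (4.91). Fn1 (0.96) and Cdh2 (0.50), genes of fibronectin and N-cadherin, were also called up. Tnc, which encodes tenascin C, fell from 364 ± 11.9 to 22.6 ± 0.752 CPM (SD, n = 3; log2 fold change -4.01, SE 0.049, edgeR adjusted p = 1.70e-22), and Acta2 (-1.07), Axl (-0.50) and Vim (-0.20) fell too. Tagln and Spock1 had at most 3 counts in any library.

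Other factors of cranial neural crest and limb mesenchyme rose more often than they fell. Of 32 listed, 22 were tested, 16 rose, 4 fell and 2 were not called, with a median log2 fold change of 1.02. Over all genes tested, 38.0% were called up and 37.1% down, and the median was 0.01. The summed level of the list went from between 408 and 418 CPM in Control libraries to between 760 and 804 CPM in Hdac4-knockdown libraries. Dlx5, a homeobox gene of the jaw and of osteoblasts, had 4, 8 and 5 counts in Control libraries and 227, 266 and 282 in knockdown libraries (log2 fold change 5.41, SE 0.24, edgeR adjusted p = 7.08e-14). Alx4, a homeobox gene of the skull vault, had 62, 45 and 89 counts in Control libraries and 2233, 2592 and 2264 in knockdown libraries (log2 fold change 5.10, SE 0.12, edgeR adjusted p = 2.40e-18). Ebf3 (-1.96), Ebf1 (-1.11), Msx2 (-0.91) and Nr2f1 (-0.41) fell, and Msx1 (-0.07) and Sox9 (0.02) were not called. Sox10 and Foxd3, markers of early neural crest, had 0 counts in all libraries, and Meox1, Meox2, Barx1, Lmx1b and Ebf2 had at most 3 in any library.

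**Figure D4:**
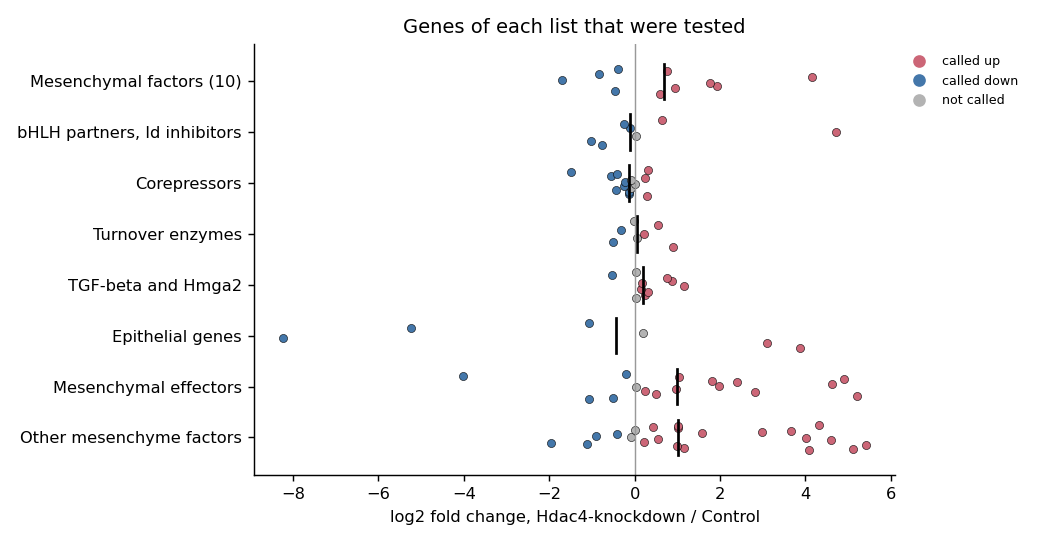
Log2 fold change (Hdac4-knockdown over Control) of each tested gene of the 10 factors and of each list, red where called up, blue where called down, grey where not called, with a bar at the median. The medians lie between -0.44 for the epithelial genes and 1.02 for the other mesenchyme factors, and each list holds genes that moved in both directions.

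Markers of other cell types moved with the groups as well. The skeletal muscle markers summed to 905 to 941 CPM in Control libraries and to 130 to 149 CPM in Hdac4-knockdown libraries, with 7 of 8 tested and all 7 down, among them Myod1, which encodes a muscle-determining bHLH protein (67.9 to 8.96 CPM). Neuronal markers went from 306 to 315 CPM down to 132 to 139 CPM, with 3 down and 1 up of 8, and Rbfox3, Snap25, Elavl3 and Dcx at 3 counts or fewer. Adipocyte markers went from 43.2 to 46.8 CPM down to 8.89 to 10.1 CPM, with 2 down of 8 and Adipoq, Plin1, Lep and Cidec at 3 counts or fewer. The pre-osteoblast markers went from 3560 to 3594 CPM up to 12934 to 13543 CPM, with 5 up, 1 down and 1 not called of 10. Col1a1, the type I collagen gene, carried that sum upward, from 338 to 11015 CPM (log2 fold change 5.03), whereas Spp1, the osteopontin gene and most of the Control sum, fell from 3154 to 2046 CPM (-0.62).

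Chondrocyte markers went from 2.57 to 3.30 CPM up to 59.1 to 64.0 CPM. Among these 8 genes, 5 were tested and all 5 rose, with Acan, Col9a1 and Matn1 at 3 counts or fewer. Most of the knockdown sum was Col2a1, which went from 0.827 to 51.1 CPM. The others called up were at 5.63 (Sox5), 4.22 (Sox6), 0.654 (Comp) and 0.459 CPM (Col10a1) in knockdown libraries. Endothelial markers, at 0.360 to 0.668 CPM in Control libraries and 5.65 to 6.73 CPM in Hdac4-knockdown libraries, had 2 tested of 8, Pecam1 and Vwf. Both rose, and Emcn had 0 counts. Haematopoietic markers, at 1.64 to 2.75 CPM and 5.30 to 6.14 CPM, had 2 up (Csf1r and Lyz2) and 1 not called of 8, with Adgre1 and Cd3e among those at 3 counts or fewer. Sox6, Comp, Col10a1, Pecam1, Vwf, Csf1r and Lyz2 passed the filter only through their Hdac4-knockdown counts, which fixed the direction of a call. The part of these cell type markers in the changes of the 10 factors was not tested.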

How the data were processed

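RNA from 3 Control and 3 Hdac4-knockdown samples was poly-A selected and sequenced on an unstranded library. The authors deposited raw counts, reads per Ensembl gene and library, without normalization; the submitters' processing notes name FastQC, STAR 2.7.3a, HTSeq 0.12.4 and the mm10 build, and the annotation release is not given in the sources used here. Summary lines for reads outside genes, shared between genes or not uniquely aligned, together 14.3% to 15.0% of reads, were left out. Symbols were matched for 53620 of 53801 identifiers, and exon lengths and overlaps came from GENCODE M21 (GRCm38).

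The groups were tested by edgeR 4.0.16 under R 4.3.3 (TMM, filterByExpr, quasi-likelihood F test, all 6 libraries, Benjamini-Hochberg over 14531 genes). The thresholds were those the study states. More genes were called here than the paper reports at those thresholds, and the paper names no test for its sequencing counts. On simulated counts for this comparison (13652 genes), the test recovered 184 of 196 planted changes, with 8 of 192 calls false. Changes were planted in 200 genes, all with a log2 fold change of 1 in size, and every gene was given the same relative spread. The simulation therefore does not give these rates for smaller changes or for data with 75.1% of genes called. Libraries of a group differed by more than sampling noise (chi-square per degree of freedom 3.38 to 9.15). Replicate numbers did not pair the groups. No interval for counting error alone is given, since the spread between libraries is larger.

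The 10 factors and all lists were chosen with earlier results of these data known. All 10 and Hdac4 were named, and from each list the 2 called genes at either end of the log2 fold changes, where the mean was at least 100 counts. Other list genes, the TATAAA motif and the neighbouring genes were chosen after their values were seen. Alternatives were DESeq2 1.42.0, limma-voom (limma 3.58.1), other size factors, filters and thresholds, a replicate block and leaving out each library.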

Additional observations from a re-analysis of the deposited data

Results flagged for a closer look

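Outside the gene counts, 4.79% of reads in Hdac4-knockdown libraries (4.64% to 5.07%) fell outside annotated genes, against 3.28% in Control libraries (3.17% to 3.41%). This came from the summary lines of the count tables, which no comparison above uses, and lay above the Control level in every Hdac4-knockdown library (two-sided exact permutation test over 3 against 3 libraries, p = 0.1, the smallest possible). Its part in the changes of the 10 factors was not tested.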

How the results depend on the processing

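Under 14 alternatives of scaling, filter, test, replicate block and left-out library, none of the 10 factors changed direction, and each kept an adjusted p below 0.05. The log2 fold change ranged from 4.04 to 4.25 for Twist1, 1.78 to 2.02 for Prrx2, 1.71 to 1.84 for Snai1 and -1.74 to -1.61 for Snai2. For Twist2 it ranged from -1.05 to -0.52, with the largest adjusted p, 0.0247, without Control replicate 3. With a log2 fold change threshold of 0.5, 6458 genes were called in place of 10914, and 2 of the 10 factors were called down, since Zeb2 and Foxc2 no longer passed. That threshold also left, by its construction, 2 bHLH and Id genes down, 0 corepressors up and 2 down, 1 turnover gene down, 3 TGF-beta genes up and 2 mesenchymal effectors down. Requiring 10 counts in every library left 0 epithelial genes up and 1 down, and 3 pre-osteoblast markers up, because fewer genes were tested. A pseudocount of 2 CPM gave paralog ratio differences of 3.76 for the Twist pair and 3.22 for the Snail pair. With the replicate block, 10964 genes were called; same-numbered libraries had correlations of -0.0052, 0.096 and 0.021, so the numbers give no pairing. Upper quartile scaling moved the median log2 fold change of all genes from 0.01 to 0.10 and gave 6316 genes up and 4608 down. Of the other values compared, 303 counts and 162 log2 fold changes stayed on the same side. Depth limits Twist2, at 37 to 131 counts per library, and the epithelial genes.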

Other observations

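Genes whose start lies within 500 kb of the start of a factor were examined after the values of the factors were seen. The background for all neighbour counts here is all genes tested, of which 38.0% were called up and 37.1% down. Whether neighbours changed together was not tested. Next to Foxc2, which fell, the forkhead gene Foxf1, 31.8 kb away, rose from 1.82 ± 0.133 to 44.3 ± 2.43 CPM (SD, n = 3; log2 fold change 4.60, SE 0.096, edgeR adjusted p = 4.05e-19). Fendrr, the noncoding RNA gene that starts beside Foxf1, rose too (3.63), and so did Mthfsd (0.85), while Foxl1, 11.8 kb from Foxc2, was not called (log2 fold change 0.14). Within this distance of Foxc2, 4 tested genes rose, 2 fell and 2 were not called.

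Near Prrx2, 19 genes were tested, of which 11 rose, 4 fell and 4 were not called. Ptges, which encodes a prostaglandin E synthase, starts 94.9 kb from Prrx2 and rose from 9.10 ± 1.01 to 156 ± 5.00 CPM (SD, n = 3; log2 fold change 4.10, edgeR adjusted p = 7.29e-21). Around Snai1, 1 of 14 tested genes rose, the noncoding gene Gm11476 (log2 fold change 4.92), and 5 fell. No gene whose start lies within 500 kb of the start of Twist1 had enough counts to be tested. Genes that start farther away but reach into this distance were not counted.

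Twist2 and Hdac4 lie on the same chromosome with starts 394 kb apart, and both fell (log2 fold changes -0.83 and -0.44). Of the 10 tested genes within 500 kb of Twist2, 5 fell, 2 rose and 3 were not called, and the largest falls were those of Erfe (log2 fold change -2.89, 435 kb away) and Klhl30 (-2.78, 450.4 kb away). Dnm3os, the noncoding RNA gene that hosts microRNAs of mesenchyme, was at 6.60 ± 1.30 CPM in Control libraries and 27.3 ± 5.48 CPM in Hdac4-knockdown libraries (SD, n = 3; log2 fold change 2.05, edgeR adjusted p = 6.38e-11). Hdac9, another class IIa deacetylase gene, fell from 16.8 ± 0.441 to 2.07 ± 0.184 CPM (SD, n = 3; log2 fold change -3.02, edgeR adjusted p = 5.26e-15).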
